A study of Mus musculus with 2 samples.

Results

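The IL-6 family in healing mouse skin is described here through 10 of the 27998 genes counted in 2 single-cell libraries. The members were taken by symbol from the gene lists of both count tables. They comprise 4 cytokines (Il6, Il11, Lif and Osm), 4 receptor chains (Il6ra, Il6st, Lifr and Osmr), the transcription factor Stat3 and its feedback inhibitor Socs3. For each member, UMIs (counted RNA molecules) were summed over all cells of a class and scaled by the UMIs of that class to a UMIs-per-million level (CPM), separately in each library.

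Both libraries came from wild-type male C57BL/6J mice aged 6 to 8 weeks that carried a full-thickness excision of the back skin with a diameter of 1.8 cm. WT_LW wounds received PBS and TLR9agonist_LW wounds received ODN2395, a CpG oligonucleotide that activates the DNA sensor TLR9, each on days 0, 3 and 6 after wounding. The wound centre was taken 2 days after the scab came off, epidermis and dermis were separated, dissociated and mixed again, dead cells were removed, and cells of several mice were pooled into 1 library per group. The comparison asks how activation of TLR9 alters the cells of a healing large wound. Because each group is 1 pooled library, differences between treatments, mice and library preparations cannot be told apart, and no test between the libraries was possible.

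IL-6 family cytokines signal through receptor complexes that share the chain gp130, the product of Il6st. IL-6 and IL-11 bind a private alpha chain first, whereas LIF and oncostatin M use LIFR or OSMR as the partner of gp130. The receptor-bound Janus kinases phosphorylate STAT3, which enters the nucleus and induces genes that include Socs3, and SOCS3 protein then blocks gp130. In skin the family is known for its part in inflammation, keratinocyte migration and wound closure.

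Of 12800 deposited cells of WT_LW and 13751 of TLR9agonist_LW, 11443 and 13206 passed the quality filter. A marker gate placed 9432 (82.4%) and 10394 (78.7%) of them in 10 classes, and the remaining 2011 and 2812 cells had no class. A class name stands for cells that expressed at least 3 of its 8 marker genes and at least 2 more than of any other class, so each name means cells like that type. The classes held 3234 T cells in WT_LW and 2649 in TLR9agonist_LW, 2030 and 1365 mononuclear phagocytes, 986 and 2616 fibroblasts, 745 and 1702 keratinocytes, 725 and 449 endothelial cells, and 656 and 477 pericytes and smooth muscle cells. All 8 markers were highest in their own class, except 7 of 8 for phagocytes of WT_LW and for T cells of TLR9agonist_LW. Neutrophils (44 and 159 cells) and NK cells (21 and 12 cells) were few. The median gated cell held 6359.5 UMIs in WT_LW and 7628.5 in TLR9agonist_LW, and 47 cell barcodes occurred in both libraries.

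All intervals below are 95% intervals and cover counting error only. A ratio is given as log2 of TLR9agonist_LW over WT_LW, and a centred ratio is that value minus the median over all genes that reached 50 UMIs there. This median lay between -0.50 in keratinocytes and 0.07 in NK cells (-0.44 in pericytes and smooth muscle, -0.41 in endothelial cells, -0.27 in fibroblasts and -0.28 in T cells). A member was counted as higher or lower when it had at least 50 UMIs in the class and its centred ratio was at or past 1.5-fold. The 50 UMIs were summed over both libraries, so a member could pass only through the library where it was high.

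The members lie on 6 mouse chromosomes, and positions here refer to GRCm38. Il6 occupies chr5:30013114-30019981 on the plus strand, Il11 chr7:4772373-4782859 on the minus strand, and Lif chr11:4257557-4272514 and Osm chr11:4236420-4241026 lie close together on the plus strand. RefSeq start regions (GRCm38.p6, 250 bases before to 50 bases after a transcript start) were found for 9 of the 10 members. The 3 start regions below belong to the cytokine genes that were higher together in pericytes and smooth muscle, and capitals mark the motif matches found in them, all read 5′ to 3′ on the strand of the gene.

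Il6, chr5:30012864-30013163, plus strand: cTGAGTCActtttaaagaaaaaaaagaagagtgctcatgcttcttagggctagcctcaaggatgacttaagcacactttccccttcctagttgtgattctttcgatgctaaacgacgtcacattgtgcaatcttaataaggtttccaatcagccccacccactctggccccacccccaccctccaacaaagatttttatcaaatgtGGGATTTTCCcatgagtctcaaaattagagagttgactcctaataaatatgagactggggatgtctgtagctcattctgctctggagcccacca
Lif, chr11:4257318-4257617, plus strand: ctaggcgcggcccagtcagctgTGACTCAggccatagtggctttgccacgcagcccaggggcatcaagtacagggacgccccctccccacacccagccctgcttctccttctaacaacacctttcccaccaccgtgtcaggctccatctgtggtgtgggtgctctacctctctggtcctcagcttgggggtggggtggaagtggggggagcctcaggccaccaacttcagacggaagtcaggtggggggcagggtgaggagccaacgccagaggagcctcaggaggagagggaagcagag
Il11, chr7:4778092-4778391, minus strand: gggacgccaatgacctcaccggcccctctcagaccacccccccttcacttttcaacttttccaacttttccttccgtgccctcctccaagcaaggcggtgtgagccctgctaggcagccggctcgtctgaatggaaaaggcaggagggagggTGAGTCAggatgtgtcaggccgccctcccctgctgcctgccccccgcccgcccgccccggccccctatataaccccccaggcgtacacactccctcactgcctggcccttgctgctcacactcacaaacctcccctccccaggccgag

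Both strands were searched for an NF-kB-type motif (GGG, any 3 bases, TTCC), an AP-1-type motif (TGANTCA) and a STAT-type motif (TTCCNGGAA). The Il6 region held the NF-kB-type match GGGATTTTCC 44 bases before the start and the AP-1-type match TGAGTCA 249 bases before it. Lif held TGACTCA 228 bases and Il11 TGAGTCA 98 bases before the start, while Il11 has another RefSeq start region without a match. Osmr, the fourth member with an AP-1-type match, carried TGATTCA within the 50 bases after its start, and no member region held the STAT-type letters. Over all 32851 start regions, 5.56% held the NF-kB-type, 7.81% the AP-1-type and 1.15% the STAT-type letters. These matches are descriptions of sequence and say nothing of binding.

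**Figure D1:**
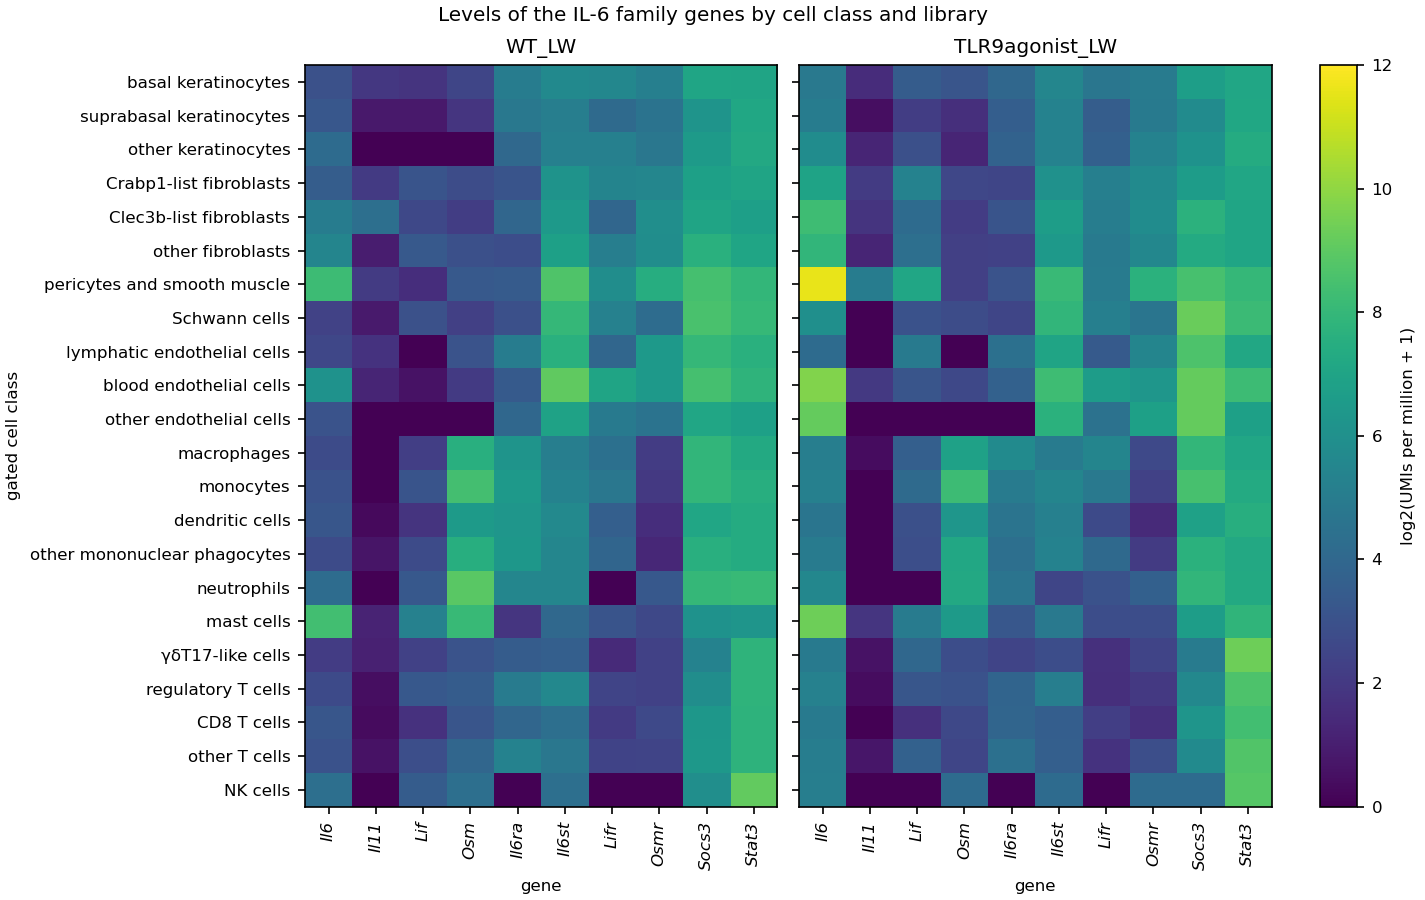
Level of each of the 10 members (columns) in 22 gated cell classes (rows) of WT_LW (left) and TLR9agonist_LW (right), as log2(CPM + 1) in colour. Il6 in pericytes and smooth muscle is the brightest cell of the right panel (3086 CPM), Osm is bright in phagocytes, neutrophils and mast cells, and Il6st in endothelial cells and pericytes.

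Il6 encodes interleukin 6, the founding member of the family. In pericytes and smooth muscle, the contractile cells around blood vessels, Il6 stood at 296 CPM in WT_LW (282 to 311, from 1652 UMIs) and at 3086 in TLR9agonist_LW (3033 to 3139, from 12999 UMIs). The level was 10.4-fold higher in TLR9agonist_LW, a log2 ratio of 3.38 and a centred ratio of 3.82 (3.74 to 3.89). No other class reached this level in TLR9agonist_LW, whereas in WT_LW the pericyte interval overlapped that of mast cells.

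Blood endothelial cells, which line the vessels, came next in TLR9agonist_LW, with 67.6 CPM of Il6 in WT_LW and 835 in TLR9agonist_LW (centred ratio 4.07, 3.92 to 4.22). Lymphatic endothelial cells held 4.85 and 17.5, on 2 and 11 UMIs, so their level is known only roughly. Mast cells carried 325 CPM in WT_LW (287 to 368) and 658 in TLR9agonist_LW (612 to 706), the smallest centred ratio of Il6 among the classes with at least 50 UMIs (1.01). In both libraries a few mast cells held much of it, since the single richest cell gave 15.4% of the 254 mast cell UMIs in WT_LW and 6.59% of the 759 in TLR9agonist_LW.

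Fibroblasts were split by marker lists named after Crabp1 and Clec3b. Those with genes of the Clec3b list held 32.3 CPM of Il6 in WT_LW and 305 in TLR9agonist_LW (centred ratio 3.54, 3.37 to 3.72). Those with genes of the Crabp1 list held 10.5 and 123 (3.78, 3.43 to 4.16), and the other fibroblasts 43.7 and 236 (2.74, 2.44 to 3.06). The Crabp1-list cells thus had the lowest Il6 level of the fibroblasts in both libraries, with intervals apart from those of the other fibroblast groups. Schwann cells, the glia of peripheral nerves, had a lower Il6 level than fibroblasts, pericytes and endothelial cells, with 4.17 CPM in WT_LW and 61.4 in TLR9agonist_LW (centred ratio 4.06, 3.47 to 4.71).

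T cells served as the class in which Il6 should be near background, and they held 6.28 CPM in WT_LW and 33.6 in TLR9agonist_LW. Keratinocytes (8.27 and 31.8) and mononuclear phagocytes (6.39 and 32.1) lay close to these values in each library, and so did γδT17-like cells (3.43 and 29.3). Il6 in these classes was therefore not told apart from the T cell level, and its ratios there (centred 2.44, 2.59 and 3.40) are not read as expression. Whether this Il6 was background or a low expression was not tested. The Il6 of pericytes, blood endothelial cells, mast cells and fibroblasts stood above the T cell level in both libraries, and that of Schwann cells only in TLR9agonist_LW.

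**Figure D2:**
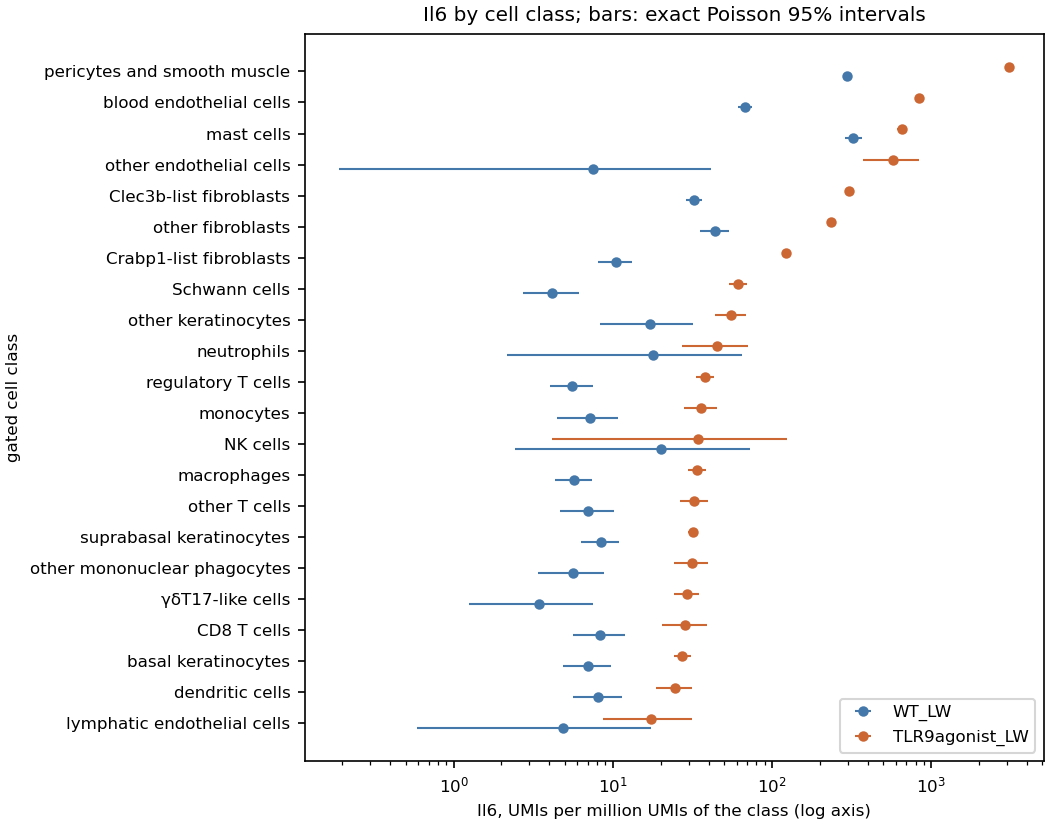
Il6 in CPM (log axis) in 22 gated classes, blue for WT_LW and orange for TLR9agonist_LW, with bars for exact Poisson 95% intervals. Pericytes and smooth muscle reach 3086 in TLR9agonist_LW, and keratinocytes, phagocytes and T cells lie together near 30 in that library.

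The share of cells with an Il6 UMI was read after thinning every cell to 1500 UMIs. In pericytes and smooth muscle, 16.3% of 614 thinned cells of WT_LW had an Il6 UMI (13.5% to 19.4%) and 70.3% of 475 in TLR9agonist_LW (66.0% to 74.4%), with 42 and 2 shallower cells left out. The shares were 28.0% and 80.7% before thinning. T cells, which give the background, showed 1.10% in WT_LW and 3.98% in TLR9agonist_LW after thinning, at a median depth of 4341.5 and 4810 UMIs against 7872 and 8153 in pericytes. Blood endothelial cells showed 6.80% and 45.8%, mast cells 14.1% and 38.0%, and Clec3b-list fibroblasts 4.05% and 22.9%.

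Within pericytes and smooth muscle, Il6 was spread over more cells in TLR9agonist_LW. The 66 cells richest in Il6, 10% of the class, held 84.4% of its Il6 UMIs in WT_LW, and the corresponding 48 cells of TLR9agonist_LW held 36.5%. The median cell had no Il6 in WT_LW and 23.5 UMIs per 10000 in TLR9agonist_LW. A split chosen after the values had been seen compared cells with UMIs of the smooth muscle genes Myh11 or Des and none of the pericyte gene Kcnj8 (218 and 209 cells) with the reverse (29 and 15 cells). The former held an Il6 level of 406 (375 to 439) and 3713 CPM (3623 to 3806) and the latter 402 (295 to 537) and 3266 (2919 to 3644). The intervals overlapped in WT_LW and only at their edges in TLR9agonist_LW, and whether these cells differ in Il6 was not tested.

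Markers of other cell types were measured in the pericyte class as well. The summed level of the 8 fibroblast markers there was 1049 CPM in WT_LW and 1103 in TLR9agonist_LW, against 13083 in WT_LW fibroblasts themselves. The neutrophil list, of which 7 of 8 markers had a UMI in each library, stood at 91.0 and 1131, and the keratinocyte list, with 8 of 8, at 239 and 706. T cells also held more of these lists in TLR9agonist_LW (186 and 1804 for neutrophil markers, 372 and 1017 for keratinocyte markers). Fibroblasts themselves held 25.8 CPM of Il6 in WT_LW and 203 in TLR9agonist_LW. The part of fibroblasts or of the other cell types in the Il6 level of the pericyte class was not tested.

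Of all Il6 UMIs in gated cells, pericytes and smooth muscle held 52.9% in WT_LW (51.2% to 54.7%) and 47.0% in TLR9agonist_LW (46.4% to 47.6%), while giving 6.44% and 3.67% of all UMIs. Fibroblasts held 14.5% and 27.8%, and endothelial cells 12.5% and 14.3%. Mast cells held 8.14% in WT_LW. The vessel wall classes thus carried most Il6 molecules of both libraries, and these shares depend on how many cells of each class were recovered.

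Lif encodes leukemia inhibitory factor, which signals through LIFR and gp130. In pericytes and smooth muscle it rested on 11 UMIs in WT_LW, or 1.97 CPM (0.984 to 3.53), and on 582 in TLR9agonist_LW, or 138 (127 to 150). This was the highest centred ratio of any member in any first-level class (6.57, 5.72 to 7.58). The share of thinned pericytes with a Lif UMI was 0.163% in WT_LW and 10.9% in TLR9agonist_LW, and 107 of the 477 cells had one without thinning.

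Fibroblasts held 6.49 CPM of Lif in WT_LW and 28.3 in TLR9agonist_LW (centred ratio 2.39, 2.11 to 2.68). Among them the Crabp1-list cells had the highest level in TLR9agonist_LW, with 7.60 and 38.5, against 5.05 and 17.1 in Clec3b-list cells. In TLR9agonist_LW this order is the reverse of that of Il6, whereas in WT_LW the Lif intervals of the fibroblast groups overlapped. Fibroblasts gave 47.6% of all Lif UMIs of TLR9agonist_LW and pericytes 25.9%.

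Endothelial cells carried 0.477 CPM of Lif in WT_LW, on 3 UMIs, and 10.3 in TLR9agonist_LW, on 55 (centred ratio 4.83, 3.21 to 7.15). T cells, meant as background for Lif, held 6.45 and 10.5, and regulatory T cells 9.0 and 8.33. The T cell value lay above that of endothelial cells and keratinocytes (1.43) in WT_LW, so T cells were not a floor for Lif there, and in TLR9agonist_LW endothelial cells and phagocytes (10.6) did not differ from T cells beyond counting error. Mast cells held 37.2 and 30.3 CPM, on 29 and 35 UMIs, and their intervals overlapped. Lif in Schwann cells was level as well, at 6.89 and 7.03.

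Il6 and Lif often occurred in the same pericytes, a count looked at after the values had been seen. In TLR9agonist_LW, thinned to 1500 UMIs, 92.3% of the 52 pericytes with a Lif UMI also had an Il6 UMI, against 67.6% of the 423 without one. In WT_LW only 1 thinned pericyte had a Lif UMI, so no share can be given.

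Il11 encodes interleukin 11, which acts on stromal cells through IL11RA and gp130. It was rare everywhere, and its ratio had opposite signs in pericytes and fibroblasts. Pericytes and smooth muscle held 18 UMIs in WT_LW and 133 in TLR9agonist_LW, or 3.22 (1.91 to 5.10) and 31.6 (26.4 to 37.4) CPM, a centred ratio of 3.73. Clec3b-list fibroblasts held 180 UMIs in WT_LW and 33 in TLR9agonist_LW, or 19.8 (16.97 to 22.9) and 2.54 (1.75 to 3.56) CPM, 7.78-fold lower in TLR9agonist_LW. Crabp1-list fibroblasts held 3.17 and 3.27, with overlapping intervals. Both directions were the same before centring.

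Fibroblasts gave 76.2% of all Il11 UMIs in WT_LW (70.6% to 81.2%) and 35.6% in TLR9agonist_LW (30.1% to 41.5%), and pericytes gave 6.79% and 46.0%. Summed over all gated cells Il11 was nearly level, at 3.06 and 2.52 CPM. T cells, the background for this gene, held 0.465 and 0.407, and mononuclear phagocytes 0.143 and 0.15. In TLR9agonist_LW 17 of the 18 thinned pericytes with an Il11 UMI (94.4%) also had one of Il6, against 69.4% of the 457 without Il11.

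Osm encodes oncostatin M, a product of leukocytes. Mononuclear phagocytes held 191 CPM of Osm in WT_LW (185 to 197) and 142 in TLR9agonist_LW (135 to 148), a centred ratio of -0.17. Among them monocytes stood highest, with 336 and 297, and dendritic cells lowest, with 90.6 and 77.5. Macrophages held 189 and 117 and the other phagocytes 186 and 147, which overlapped in WT_LW and lay apart in TLR9agonist_LW. The centred ratio was 0.20 in monocytes, where the uncentred value was -0.18, and -0.50 in macrophages, where the uncentred value of -0.69 was past 1.5-fold. After centring none of these phagocyte groups passed it.

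Mast cells were lower in Osm, with 270 CPM in WT_LW (235 to 309) and 91.0 in TLR9agonist_LW (74.4 to 110), a centred ratio of -1.57. Neutrophils held 485 (364 to 633) and 150 (116 to 193), on 54 and 63 UMIs, with 44 cells behind the WT_LW value. Phagocytes nonetheless gave 85.7% of all Osm UMIs in WT_LW and 75.8% in TLR9agonist_LW. Over all gated cells Osm was 2.49-fold lower in TLR9agonist_LW, with 53.9 and 21.7 CPM, and phagocytes made up 24.2% and 11.6% of all gated UMIs. The background for Osm, read in keratinocytes, was 3.37 and 3.55, and fibroblasts (4.78 and 4.21) and endothelial cells (3.34 and 4.48) lay near it. Pericytes held 9.14 (6.80 to 12) and 3.80 (2.17 to 6.17), above that background in WT_LW and near the T cell level (10.5).

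**Figure D3:**
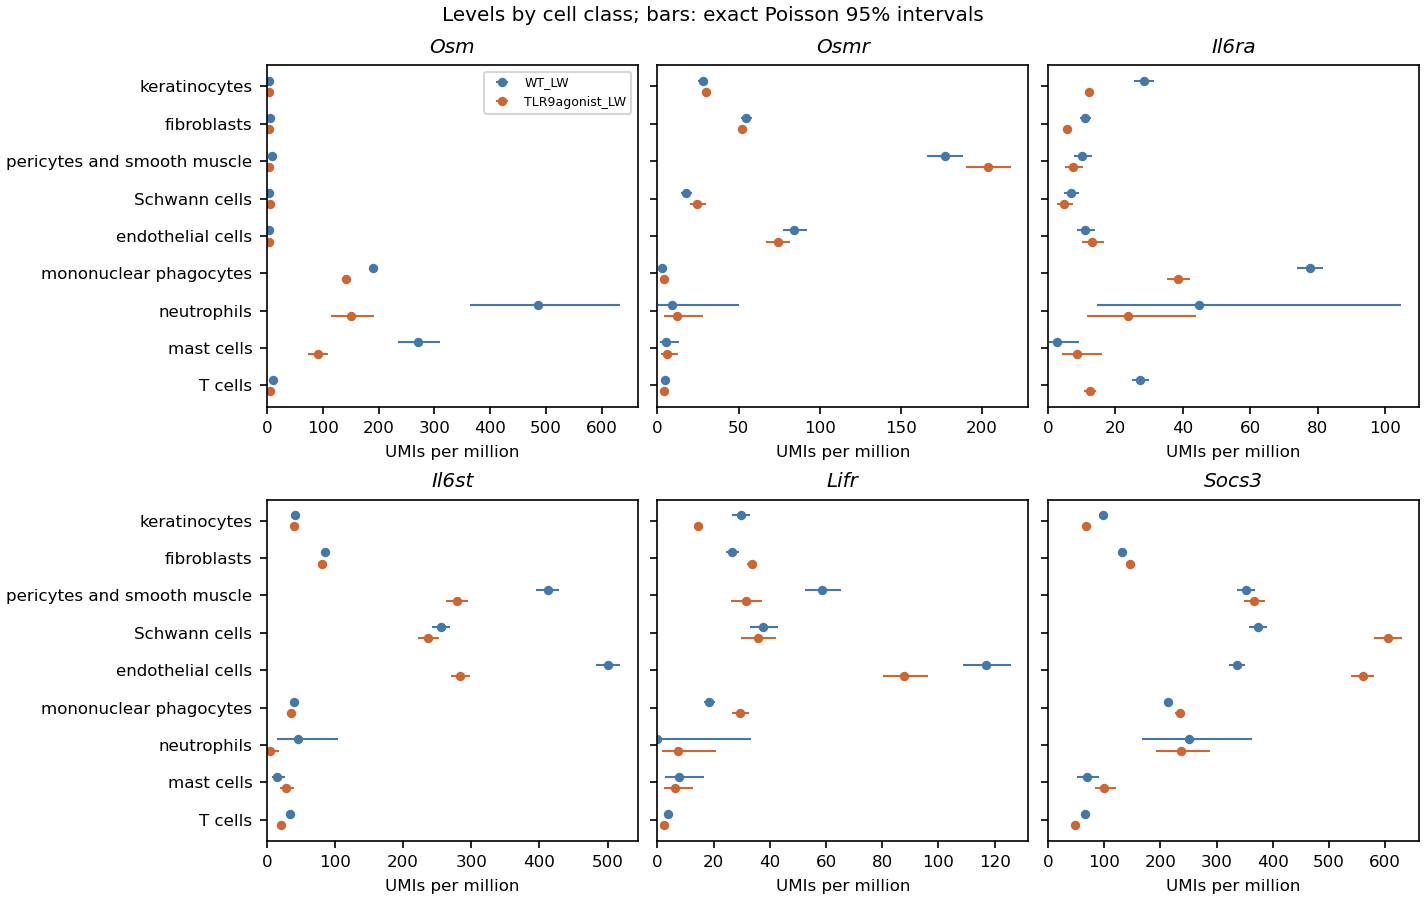
Levels of Osm, Osmr, Il6ra, Il6st, Lifr and Socs3 in CPM (linear axes) for 9 first-level classes, blue for WT_LW and orange for TLR9agonist_LW, with bars for exact Poisson 95% intervals. Osm lies in phagocytes, neutrophils and mast cells while Osmr is highest in pericytes and smooth muscle (177 and 204), and Il6ra in phagocytes is 77.7 in WT_LW and 38.7 in TLR9agonist_LW.

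Osmr encodes the oncostatin M receptor beta chain, and it had its highest first-level value in pericytes and smooth muscle. There it held 177 CPM in WT_LW (166 to 189) and 204 in TLR9agonist_LW (190 to 218), a log2 ratio of 0.20 and a centred ratio of 0.64. Endothelial cells followed with 84.5 and 74.3, fibroblasts with 54.6 and 52.3, and keratinocytes with 28.1 and 30.03. The order of these 4 classes was the same in both libraries and no neighbouring intervals overlapped. Mononuclear phagocytes (2.72 and 4.13) were at or near the T cell background (4.36 and 4.0). In phagocytes the ligand Osm was thus high and Osmr near background, and in pericytes the reverse was seen.

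Il6ra encodes the alpha chain that binds IL-6, and its level was highest in mononuclear phagocytes among the classes with at least 50 UMIs of it. Mononuclear phagocytes held 77.7 CPM in WT_LW (74.0 to 81.6) and 38.7 in TLR9agonist_LW (35.4 to 42.2), 2.01-fold lower in TLR9agonist_LW with a centred ratio of -0.75. Monocytes held 86.9 and 30.9 (centred -1.11), dendritic cells 78.1 and 23.6 (-1.41) and macrophages 73.7 and 52.6 (-0.30). The 3 phagocyte types overlapped in WT_LW, while in TLR9agonist_LW macrophages stood apart above the others.

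In T cells Il6ra was 27.3 in WT_LW and 12.4 in TLR9agonist_LW (centred ratio -0.86, -1.11 to -0.61). Regulatory T cells held 30.7 and 13.5, CD8 T cells 14.8 and 13.9, and γδT17-like cells 10.3 and 4.43, on 18 UMIs in each library. Keratinocytes had been taken as the class without Il6ra, but with 28.3 and 12.1 (centred -0.73) they stood above fibroblasts (11.0 and 5.61), pericytes (10.0 and 7.36) and Schwann cells (6.73 and 4.60). Endothelial cells were the only class counted as higher, with 11.0 (8.54 to 13.9) and 13.1 (10.2 to 16.5), whose intervals overlapped and whose uncentred ratio was 0.25. Pericytes and endothelial cells, the first-level classes with the highest Il6 in TLR9agonist_LW, therefore held less Il6ra than phagocytes in both libraries. In TLR9agonist_LW the endothelial level was close to that of T cells and keratinocytes.

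Il6st encodes gp130, the chain shared by all receptors of the family. Blood endothelial cells held 532 CPM in WT_LW (513 to 551) and 305 in TLR9agonist_LW (290 to 321), pericytes and smooth muscle 412 and 279, and Schwann cells 255 and 236. Relative to the median gene of the class these were small differences, with centred ratios of -0.36, -0.13 and 0.07. Fibroblasts held 84.8 and 81.5, keratinocytes 41.1 and 40.3, phagocytes 39.5 and 34.8, and T cells 33.5 and 19.95. No first-level class with at least 50 UMIs of Il6st was past 1.5-fold after centring. Before centring Il6st was 1.77-fold lower in endothelial cells and 1.68-fold lower in T cells.

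Among T cells, Il6st was highest in regulatory T cells (48.2 and 34.6) and lowest in γδT17-like cells (11.4 and 6.15, on 20 and 25 UMIs). The γδT17-like cells had the lowest values of both chains of the IL-6 receptor among the T cell groups. Their intervals lay below those of regulatory T cells in both libraries, and overlapped those of CD8 T cells except for Il6ra in TLR9agonist_LW.

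Lifr encodes the LIF receptor chain. It too was highest in blood endothelial cells, with 126 CPM in WT_LW (117 to 136) and 99.0 in TLR9agonist_LW (90.2 to 108), a centred ratio of 0.09 where the uncentred one was -0.35. Pericytes and smooth muscle held 58.6 and 31.3, a centred ratio of -0.47, and 1.87-fold lower without centring. Keratinocytes held 29.6 and 14.4, a centred ratio of -0.54, and 2.05-fold lower without centring. Both were thus past 1.5-fold only before centring. Clec3b-list fibroblasts held 14.4 and 33.0, a centred ratio of 1.5 (1.21 to 1.79), whereas Crabp1-list fibroblasts held 41.8 and 35.1 (-0.03). The Clec3b-list cells were below the Crabp1-list cells in WT_LW, and in TLR9agonist_LW their intervals overlapped. Macrophages held 20.4 and 42.8 (centred 1.26), and T cells, the background, 3.84 and 2.31.

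Stat3, the transcription factor downstream of gp130, was present in every class, and its highest centred ratio was in a T cell group. γδT17-like cells, named from markers that include Cd163l1, Blk and Sox13, held 221 CPM in WT_LW (200 to 245, from 387 UMIs) and 644 in TLR9agonist_LW (619 to 669, from 2615 UMIs). This was 2.91-fold higher, a centred ratio of 1.85 (1.69 to 2.01). The other T cell groups were higher by less, with 225 and 405 in regulatory T cells (centred 1.05), 213 and 333 in CD8 T cells (0.84) and 213 and 421 in the remaining T cells (1.23). In WT_LW the 4 groups lay between 213 and 225 with overlapping intervals, and in TLR9agonist_LW the γδT17-like cells stood above the other 3 groups.

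After thinning, 22.9% of γδT17-like cells of WT_LW had a Stat3 UMI (18.8% to 27.5%) and 50.6% of TLR9agonist_LW (47.1% to 54.1%), and the unthinned shares were 49.3% and 78.0%. For all T cells the thinned shares were 26.9% and 43.7%. T cells gave 24.5% of all Stat3 UMIs in WT_LW and 30.2% in TLR9agonist_LW, although their share of all UMIs was 19.8% and 12.8%.

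Outside T cells, the Stat3 level of mast cells was 74.3 (56.4 to 96.1) and 233 (206 to 263), a centred ratio of 1.65, on 58 and 269 UMIs. In endothelial cells the values were 217 and 276 (centred 0.75, uncentred 0.34), and in neutrophils 270 and 155 (-0.72, on 30 and 65 UMIs). Keratinocytes (137 and 142), fibroblasts (120 and 133), pericytes (242 and 254), Schwann cells (261 and 291) and phagocytes (162 and 153) did not pass 1.5-fold.

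Socs3, the feedback inhibitor of gp130, was highest in Schwann cells and in the vessel classes. Schwann cells held 373 CPM in WT_LW (358 to 389) and 605 in TLR9agonist_LW (580 to 631), a centred ratio of 0.88. Blood endothelial cells held 346 and 581 (centred 1.19, 1.10 to 1.27) and lymphatic endothelial cells 249.7 and 399.6 (0.84). In pericytes and smooth muscle, where Il6 differed by 10.4-fold, Socs3 was 353 and 367 (centred 0.49, 0.40 to 0.59). In WT_LW the intervals of Schwann cells, pericytes and endothelial cells formed an overlapping chain, and in TLR9agonist_LW the pericyte interval lay below the other pair.

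Among other classes, Clec3b-list fibroblasts held 130 and 205 (centred 0.96) and Crabp1-list fibroblasts 112 and 99.3 (0.04). Monocytes held 246 and 366 (0.95, but 0.57 and short of 1.5-fold without centring) and macrophages 240 and 249 (0.24). In T cells the value was 66.5 and 47.2 (-0.22), and in γδT17-like cells 38.9 and 31.3, with overlapping intervals. The γδT17-like cells therefore combined the highest Stat3 of the 4 T cell groups in TLR9agonist_LW with the lowest Socs3.

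**Figure D4:**
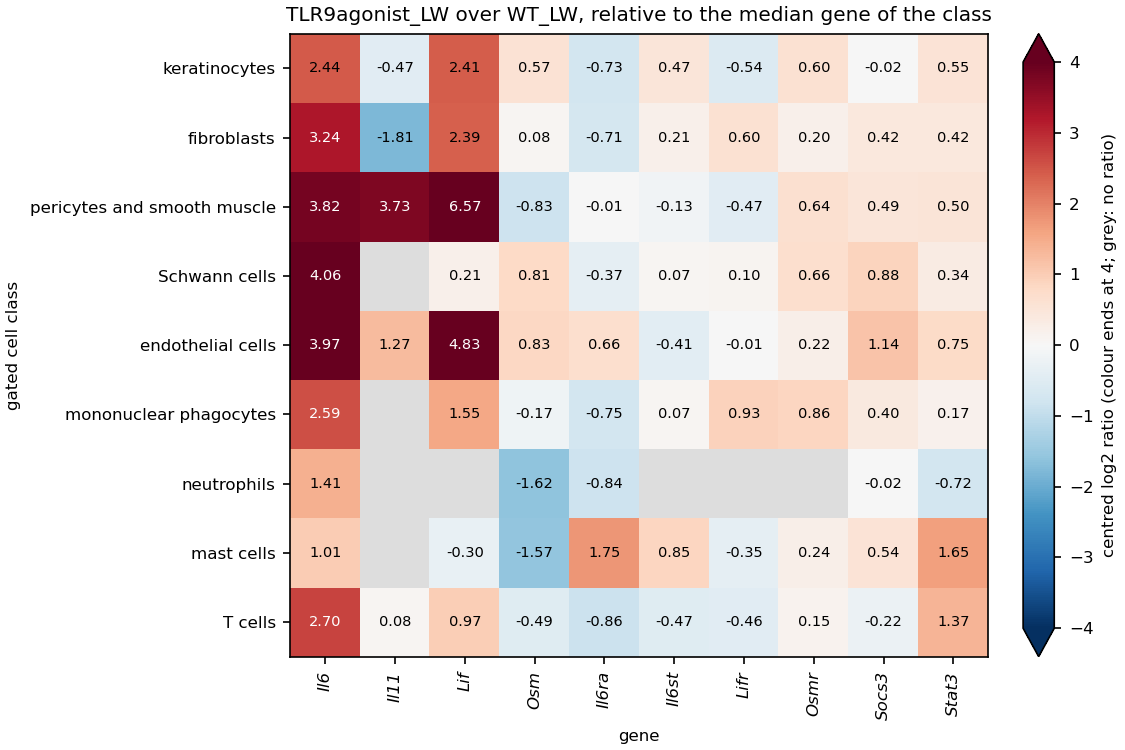
Centred log2 ratio of TLR9agonist_LW over WT_LW for the 10 members (columns) in 9 first-level classes (rows), with the value written in each cell and grey where fewer than 10 UMIs were counted over both libraries. Il6 is above 0 in all 9 classes, but in T cells, keratinocytes and phagocytes its ratio is not read as expression. In neutrophils the Il6 ratio rests on 2 and 19 UMIs. Lif reaches 6.57 in pericytes and smooth muscle, Il11 is 3.73 there and -1.81 in fibroblasts, and Stat3 is 1.37 in T cells.

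Counted by class, pericytes and smooth muscle had 10 members with at least 50 UMIs, of which 4 were higher (Il6, Il11, Lif and Osmr) and 1 was lower (Osm); over all 9948 genes with that many UMIs, 15.8% were higher and 12.2% lower. In endothelial cells 5 of 8 were higher (Il6, Lif, Il6ra, Socs3 and Stat3) and 0 lower, against 15.2% and 12.7% of all genes. In fibroblasts 3 of 10 were higher (Il6, Lif and Lifr) and 2 lower (Il11 and Il6ra), against 14.3% and 9.92%. In Schwann cells 3 of 8 were higher (Il6, Osmr and Socs3) and 0 lower, against 9.68% and 7.39%. Lif in pericytes and endothelial cells, Il11 in pericytes and Il6 in Schwann cells reached 50 UMIs only through TLR9agonist_LW, where they were high. Osm in pericytes (51 and 16 UMIs) passed through WT_LW, where it was near the T cell level. The median centred ratio of the members was 0.70 in endothelial cells, 0.50 in pericytes, 0.31 in fibroblasts and 0.27 in Schwann cells, where that of all genes is 0 by construction. Without centring the counts were 3 higher and 2 lower in pericytes, 3 and 1 in endothelial cells, 2 and 2 in fibroblasts and 2 and 0 in Schwann cells.

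In T cells 3 of 9 members were higher (Il6, Lif and Stat3) and 1 lower (Il6ra), against 14% and 14.3% of all genes. T cells were themselves the class taken as background for Il6 and Lif, and for Lif they were not a floor in WT_LW. Without centring T cells had 3 higher and 4 lower. Among γδT17-like cells the same 3 of 4 were higher, against 18.6%, and 0 lower, against 18.4%. There Il6 (6 and 119 UMIs) and Lif (7 and 62 UMIs) reached the required number of UMIs only through TLR9agonist_LW. Il6 of γδT17-like cells was also not told apart from the level of all T cells. Regulatory T cells had 2 of 8 higher and 1 lower (background 11.3% and 12.1%), CD8 T cells 2 of 5 and 1 (11.5% and 15.2%), and the remaining T cells 3 of 7 and 3 (13.6% and 14.3%). Phagocytes had 4 of 9 higher (Il6, Lif, Lifr and Osmr), against 11.8%, and 1 lower (Il6ra), against 7.54%, with Il6 and Osmr near background. Keratinocytes had 3 of 9 higher (Il6, Lif and Osmr) and 1 lower (Il6ra), against 15.3% and 14.5%, or 2 and 2 without centring. Keratinocyte Lif (17 and 184 UMIs) reached the required number of UMIs only through TLR9agonist_LW. Its level there, 5.39 CPM, lay below that of T cells (10.5), and keratinocyte Il6 was not told apart from the T cell level. Mast cells had 2 of 5 higher and 1 lower (20.4% and 16.9%), neutrophils 0 of 3 higher and 2 lower (25.4% and 22.3%), and NK cells 0 of 1 in either direction (11.1% and 10.8%). Over all gated cells 2 of 10 were higher (Il6 and Lif) and 2 lower (Osm and Il6ra), against 15.5% and 12.4%, so the pooled shares were near the background.

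Genes that STAT3 is known to induce, Socs3 left out, were read from a list of 15, of which 14 were in the count tables. Like the gene lists below, it was chosen with earlier results of these data known, so its counts are descriptions. In endothelial cells 12 of 13 with at least 50 UMIs were higher and 0 lower, with a median centred ratio of 1.47, and 10 of 13 without centring, where 15.2% of all genes were higher and 12.7% lower after centring. The adhesion molecule Icam1 held 218 and 990 CPM there, the transcription factor Cebpb 108 and 326, and the kinase Pim1 159 and 379. In pericytes and smooth muscle 12 of 13 were higher and 0 lower (median 1.16), against 15.8% and 12.2% of all genes, and 7 of 13 without centring. Cebpb, at 753 and 2331, the acute-phase gene Saa3, at 15.9 and 96.1, and Lcn2, at 1.79 and 19.9, were among them, and Lcn2 is also a neutrophil product, whose summed markers were also higher in this class.

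Schwann cells had 10 of 12 listed STAT3 targets higher (median 1.08), against 9.68% of all genes, and fibroblasts 7 of 13 (1.13), against 14.3%. Keratinocytes had 8 of 13 higher (0.68), against 15.3%, and T cells 7 of 12 (1.03), against 14%. In γδT17-like cells 8 of 12 were higher, among them Batf, with 71.5 and 238 CPM, and Hif1a, with 353 and 912, and 1 was lower, Bcl6, against 18.6% and 18.4% of all genes. Regulatory T cells had 5 of 12 higher (0.44), against 11.3%, and the remaining T cells 7 of 12 (0.99), against 13.6%. CD8 T cells had 3 of 11 higher (0.04) and 1 lower, against 11.5% and 15.2%. The 7 genes of all T cells included Saa3, Timp1 and Icam1, and T cells also held more neutrophil and keratinocyte markers in TLR9agonist_LW. The part of RNA from other classes in these T cell counts was not tested. Mononuclear phagocytes had 3 of 13 higher, against 11.8% of all genes, with a median of 0.23 that turned to -0.03 without centring. Keratinocytes had 4 of 13 higher and 1 lower without centring. NF-kB also acts on several of these genes, among them Icam1, Saa3 and Lcn2.

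Heat-shock and early response genes that rise when tissue is dissociated were counted beside them. Hspa1a and Hspa1b were higher in TLR9agonist_LW in every first-level class with enough UMIs, with Hspa1a at 1628 and 5588 CPM in pericytes and 720.4 and 4498 in endothelial cells. Of 10 listed genes, 6 were higher in endothelial cells (median 0.82, with 15.2% of all genes higher), 6 in Schwann cells (0.65, 9.68%), 5 in fibroblasts (0.75, 14.3%) and 3 in pericytes (0.34, 15.8%). T cells had 2 higher and 3 lower (-0.27), against 14% and 14.3% of all genes, and mast cells 3 higher and 6 lower (-0.77), against 20.4% and 16.9%. In pericytes 0 were lower after centring, against 3 higher and 3 lower without it, where the median turned to -0.09. The early response gene Fos held 594 and 202 in T cells. The part of this response in the values of the members was not tested.

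The kinases and inhibitors of the pathway were mixed. Of 11 listed genes, pericytes and smooth muscle had 5 higher and 1 lower (median 0.16), against 15.8% and 12.2% of all genes, but 2 higher and 4 lower without centring (-0.28). Endothelial cells had 4 higher and 1 lower (0.31), against 15.2% and 12.7%, but 2 higher and 3 lower without centring (-0.10). The kinase gene Jak2 held 61.1 and 93.5 CPM in pericytes, Jak1 246 and 330, and Tyk2 12.4 and 3.80. The phosphatase gene Ptpn2 held 43.2 and 104. In γδT17-like cells Socs1, an inhibitor of Janus kinases, held 67.5 and 26.8.

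Other members of the ligand family were scarce. Clcf1, a ligand of the CNTF receptor, held 15.8 and 35.1 CPM in keratinocytes (centred 1.66). Il11ra1, the alpha chain for IL-11, held 210 and 273 in fibroblasts (centred 0.64, uncentred 0.38) and 38.7 and 37.0 in pericytes. Its level was thus higher in fibroblasts than in pericytes in both libraries. Il27ra, the receptor for the cytokine IL-27, held 48.8 and 26.3 in T cells (-0.62).

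**Figure D5:**
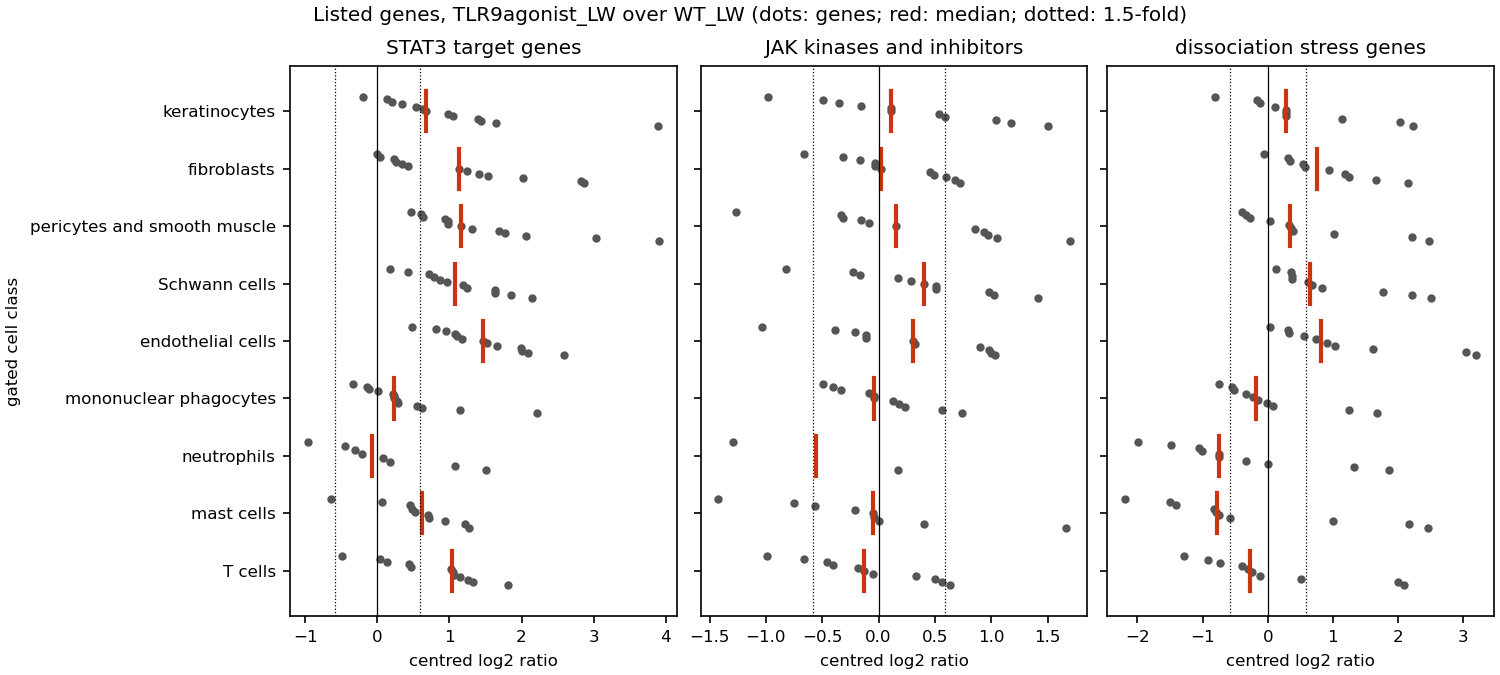
Centred log2 ratio of each listed gene with at least 50 UMIs (dots) in 9 first-level classes for STAT3 target genes, for Janus kinases and inhibitors, and for dissociation stress genes, with the median in red and dotted lines at 1.5-fold. The STAT3 target medians are 1.47 in endothelial cells, 1.16 in pericytes and smooth muscle and 0.23 in phagocytes, and the kinase medians lie nearer 0 in these classes.

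Genes with the pattern most like each member were ranked by Pearson correlation of log2(CPM + 1) over 44 points, the 22 classes in both libraries, among 13343 genes. These points share libraries and depth, so the values are descriptions. For Il6 the 3 closest were the chemokine genes Ccl2 (0.79), Cxcl1 (0.70) and Ccl11 (0.70). For Osm they were Ccl6 (0.89), Pirb (0.89) and Fem1c (0.89), and for Osmr Btbd3 (0.90), Wwtr1 (0.88) and Id3 (0.88). Lifr was closest to Ltbr (0.90), Rin2 (0.88) and Myof (0.86), and Socs3 to Ifitm3 (0.91), Pkig (0.82) and Nrp2 (0.81). For Stat3 they were Syf2 (0.83), Gpbp1 (0.81) and Rbm33 (0.77), for Il6st Lpp (0.87), Cyb5r3 (0.86) and Rras (0.85), and for Il6ra Gdap10 (0.83), Nadk (0.82) and Rbm47 (0.81). Il11 was closest to Gm26523 (0.76), Cfap69 (0.75) and Jph2 (0.74), and Lif had the weakest likeness of the 10 members, with Gm9484 (0.64), Ccl7 (0.61) and Atg10 (0.60).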

How the data were processed

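Skin of healing wounds was measured by 10x 3′ single-cell RNA sequencing in 2 libraries. For each library the authors deposited a matrix of UMI counts for called cells, without normalization; per the file headers the counts came from Cell Ranger 4.0.0, and the submitters' processing notes also name fastp and Seurat. The deposited barcode and gene lists only name cells and genes. The notes name mm9, whereas gene positions here come from GENCODE M21 (GRCm38), joined by Ensembl identifier (27645 of 27998 found), and start regions from RefSeq GRCm38.p6.

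The deposited cells held 99374045 UMIs in WT_LW and 132339022 in TLR9agonist_LW. The quality filter kept cells that reached 500 UMIs and 300 genes with no more than 15% of UMIs mitochondrial. A marker was on where its level per 10000 UMIs was above its mean over all kept cells. Doublets were treated only through the lead of 2 markers that the gate requires, and 1050 and 1821 ungated cells had 3 or more markers but too small a lead. Within a class, cells were divided by lists of 6 markers (at least 2 on). Levels carry exact Poisson intervals, ratios exact conditional binomial intervals and shares exact Clopper-Pearson intervals; ratios need 10 UMIs over both libraries. With 1 library per group no test was run, and no sample was left out. The text names all 10 members, genes of the pathway lists and, for each member, the 3 genes most alike with at least 200 UMIs. Members, marker lists and gene lists were chosen with earlier results of these data known. Alternatives comprised tighter limits on cells (8% mitochondrial, 800 genes, 1500 UMIs), a stricter gate (4 markers, lead of 3), any UMI turning a marker on, Leiden clusters (resolution 1, 2000 variable genes, 30 components, 20 neighbours), cells weighted equally, the deepest 10% of cells left out, uncentred ratios, at least 20 UMIs, and no thinning. The ratio calculation was tested on simulated data. Cebpd was not analysed here. Clusters came from scanpy 1.11.5 and leidenalg 0.10.2, intervals from scipy 1.17.1, and figures from matplotlib 3.10.9, under Python 3.11.15.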

Additional observations from a re-analysis of the deposited data

Results flagged for a closer look

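Il11 had opposite signs between cell classes, with a centred log2 ratio of 3.73 in pericytes and smooth muscle and -1.81 in fibroblasts. Il6ra was at 0.66 in endothelial cells, on the far side of the values in keratinocytes (-0.73), fibroblasts (-0.71), mononuclear phagocytes (-0.75) and T cells (-0.86). Stat3 was at 0.75 in endothelial cells, 1.65 in mast cells and 1.37 in T cells, but at -0.72 in neutrophils. With 1 library per group these differences between classes were not tested.

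Cells that the marker gate put in no class entered none of the comparisons. They also had ratios above 1.5-fold for Il6 (2.74, from 51.3 to 258 CPM), Lif (2.24, from 5.44 to 19.3) and Stat3 (1.15, from 223 to 371). Their median depth was 1861 UMIs in WT_LW and 3387.5 in TLR9agonist_LW, below that of gated cells.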

How the results depend on the processing

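Of 637 values of the 91 member ratios past 1.5-fold, taken over the alternatives, 582 stayed past it. Direction turned only for Osm when any UMI turned a marker on, in pericytes and smooth muscle (0.14) and in basal keratinocytes (-0.061). The Il6 ratio of pericytes was 3.66 with any UMI, 3.69 with equal weight per cell and 3.38 uncentred, and that of Stat3 in γδT17-like cells 1.56 with any UMI and 1.54 uncentred. Over all alternatives the number of members higher ran from 3 to 7 in endothelial cells, 2 to 4 in Schwann cells, keratinocytes and mast cells, 3 to 4 in pericytes and in phagocytes, 2 to 3 in fibroblasts and 0 to 1 in neutrophils, and stayed at 3 in T cells. The number lower in fibroblasts ran from 2 to 3. Settings that moved a count by more than 1.5 times are given next, and where the count with the settings reported is small this can be a single gene. The stricter cell filter gave 1 lower in neutrophils, and the stricter gate 0 lower in pericytes. Any UMI gave 2 lower in keratinocytes and 2 in mast cells. Leiden clusters gave 2 lower in keratinocytes, 1 in Schwann cells and 1 in neutrophils, and 4 higher in mast cells. Leaving out the deepest 10% of cells gave 2 lower in keratinocytes and 4 in T cells. Equal weight per cell gave 2 lower in pericytes, 1 in Schwann cells and 4 in T cells. Uncentred ratios gave 2 lower in keratinocytes, 2 in pericytes, 1 in endothelial cells and 4 in T cells, and 3 higher in endothelial cells. A minimum of 20 UMIs gave 1 higher in neutrophils and 4 in mast cells. Apart from the construction of each alternative, the cause was not tested. Level values stayed within counting error in 81 of 120 cases. No paired analysis was possible because each group is 1 library and no result comes from a test. Depth limits Il11, Lif in WT_LW pericytes, and neutrophils and NK cells.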
